A study of Homo sapiens with 6 samples.

Results

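The genes for translation initiation factors were described by RNA sequencing of 6 libraries of MDA-MB-231, a long-established line of human breast cancer cells without oestrogen, progesterone or amplified HER2 receptors. For 3 libraries the cells received a DNAJC12 vector, and for the other 3 the empty vector. DNAJC12 is a J-domain co-chaperone. The labels give the same line and no other treatment for both. The genes were taken by a rule on names: all protein-coding genes of the deposited count table whose symbol starts with EIF, without EIF1AY. The rule was set with earlier results of these data known and gave 55 of 58735 genes. Enough reads for a test were found for 53 of them. The labels do not say whether a group's libraries came from separate cultures or clones, so the spread behind the p-values is that of these samples and can be technical.

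Initiation is the step of translation at which a ribosome is placed on the start codon of an mRNA. The factor eIF2 brings the initiator tRNA as a complex with GTP, eIF3 and eIF1 hold the small subunit ready for scanning, and the eIF4F complex recruits it to the capped end of the message. Cells turn the step down in a pair of well-known ways: stress kinases phosphorylate eIF2, which blocks its recharging by eIF2B, and hypophosphorylated 4E-binding proteins take the cap-binding protein eIF4E away from eIF4G. The first of these favours translation of ATF4, a transcription factor of the integrated stress response, and EIF4EBP1 is a known target gene of ATF4.

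None of the 53 genes passed the edgeR quasi-likelihood test at a Benjamini-Hochberg adjusted p of 0.05, where 1.25% of all 14520 tested genes did. The DESeq2 Wald test called 2 of them and limma on log2(FPKM + 1) called 0. The highest difference was that of EIF4EBP1 at 1.10 and the lowest that of EIF2B3 at -0.71, both as the log2 ratio of cells with DNAJC12 to cells with the empty vector. At an unadjusted p of 0.05, 3 genes were higher (EIF4EBP1, EIF1 and EIF2S3) and 1 was lower (EIF2B3), which is 7.55% of the 53 genes, below the 14.1% of all tested genes. Values of both groups did not overlap for 3 genes on the higher side (EIF4EBP1, EIF1 and EIF1B) and for 3 on the lower side (EIF2B3, EIF2AK1 and EIF4ENIF1), 5.66% on each side. Over all tested genes those shares were 9.26% and 10.8%. The fold changes were above 0 for 35 genes (66.0%) and below 0 for 18, with a median of 0.11. Over all tested genes 54.9% were above 0 and the median was 0.049.

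The 95% interval of the fold change lay inside -1 to 1 for 34 of the 53 genes. For these a change of 2-fold lies outside the interval. For the other 19 the interval reached past 1 or -1, so a 2-fold difference was not excluded at this precision. The distance from the estimate to the end of the interval was 0.58 at the median and ran from 0.41 to 1.14 on the log2 scale.

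**Figure D1:**
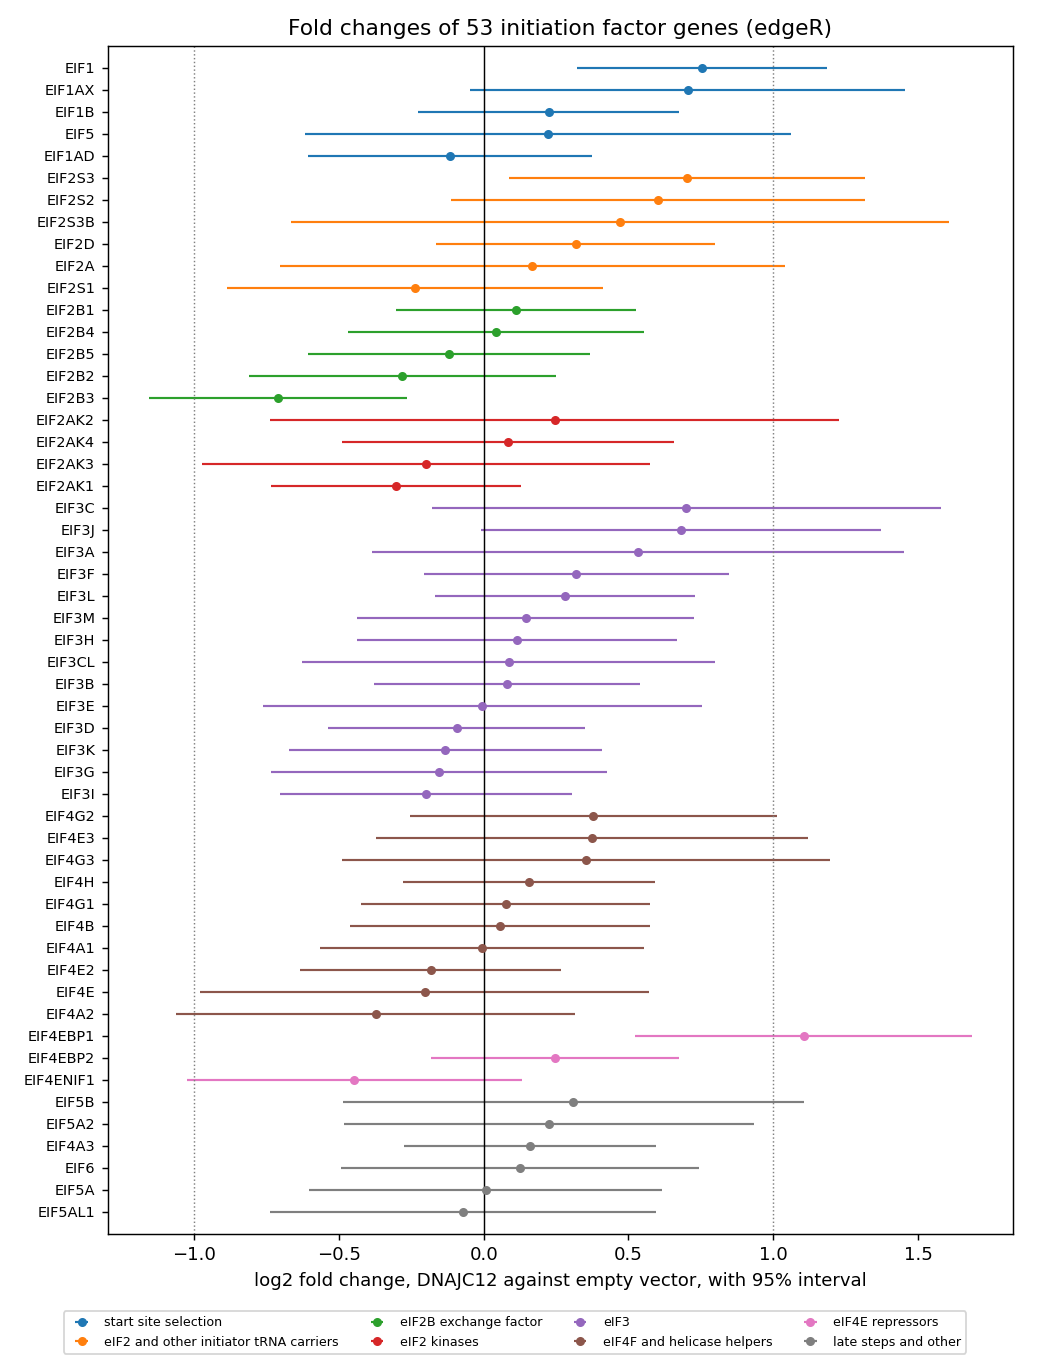
Log2 fold change of each of the 53 tested genes, DNAJC12 against empty vector (horizontal axis), with its 95% interval from edgeR, by role group and colour. The intervals of 4 genes exclude 0: EIF4EBP1, EIF1 and EIF2S3 on the higher side and EIF2B3 on the lower side.

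The 6 libraries held 17967283 to 18887497 counts each. DNAJC12 had 492 to 523 counts in each library of its own vector and 0 or 1 with the empty vector. Of the markers of the line, VIM was at 851 to 1000 CPM, counts scaled to library size with TMM factors, and CD44 at 568 to 680 CPM, ESR1 and PGR were at most 0.16 CPM, and ERBB2 was at 61.4 to 121 CPM. The leukocyte gene CD3E had 0 counts and PTPRC, CDH5 and VWF at most 0.223 CPM, while PECAM1, an endothelial gene, was at 15.1 to 22.7 CPM with the empty vector and 3.81 to 5.51 CPM with DNAJC12. Replicates 2 and 1 of the DNAJC12 group were the lowest or the highest of the 6 libraries for 42 and 38 of the 53 genes. Replicate 2 was the lowest for 19 and the highest for 23, and replicate 1 was the lowest for 18 and the highest for 20. The same counts were not made over all tested genes, so they do not show a trait of the EIF genes.

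The position of replicate 2 followed the GC content of the transcripts. Its gap to the mean of replicates 1 and 3, on the log2 CPM scale, had a median of -0.996 in the 17 genes of lowest GC content (34.3 to 42.7%) and was below 0 in 16 of them. In the 17 genes of highest GC content (49.4 to 65.5%) the median gap was 0.53, and 0 of them were below 0. Across the 53 genes, which share the same libraries, GC content and the gap had a Pearson correlation of 0.713 and a Spearman correlation of 0.719. In replicate 2 of the empty vector group the gaps were smaller and the correlations were 0.781 and 0.784. The same Pearson correlations over all 14518 genes with a known GC content were 0.764 and 0.573. Genes of high and of low GC content therefore spread in opposite directions within the DNAJC12 group.

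**Figure D2:**
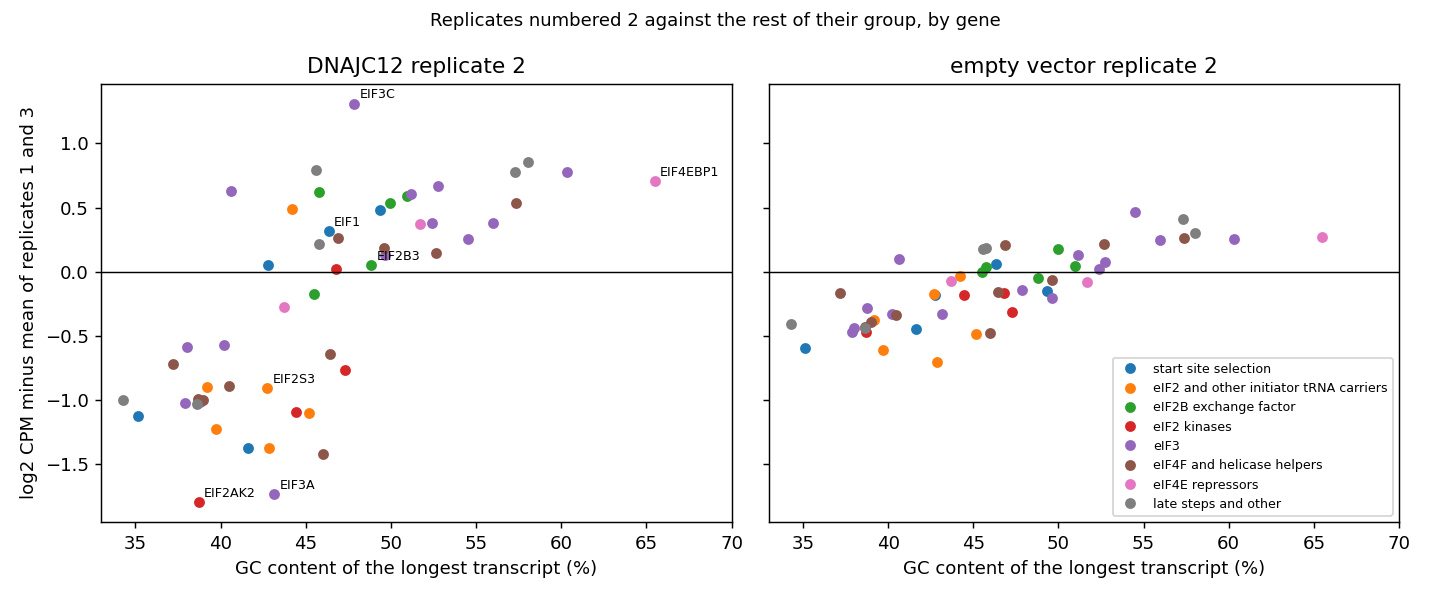
Log2 CPM of the replicate numbered 2 minus the mean of replicates 1 and 3 of its group (vertical axis) against the GC content of the longest transcript in percent (horizontal axis), for 53 genes, with 1 panel per group. In both groups most genes of low GC content lie below 0 and most of high GC content above it, with a wider range in the DNAJC12 group.

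EIF1, EIF1B, EIF1AX, EIF1AD and EIF5 were grouped under start site selection, and whether EIF1AD takes part in it was not examined. The protein eIF1 keeps the scanning ribosome open until a good start codon is reached, and eIF5 is the GTPase activator of eIF2. EIF1 is known to control its own translation through the poor context of its start codon. The bases are shown here because EIF1 is the gene of the group whose values did not overlap by the widest margin. They come from GENCODE 29 on GRCh38, 6 bases before the start codon to 1 base after it, with the base at position -3, the ATG and the base at position 4 in capitals, counted from the A of the ATG as position 1. The ATG lies at chr17:41689039-41689041 for EIF1 (plus strand), chr3:40309942-40309944 for EIF1B (plus strand), chrX:20141638-20141640 for EIF1AX (minus strand), chr14:103335861-103335863 for EIF5 (plus strand), chrX:24054969-24054971 for EIF2S3 (plus strand) and chr1:44981166-44981168 for EIF2B3 (minus strand).
EIF1: tatCgtATGT
EIF1B: tatCgcATGT
EIF1AX: accGccATGC
EIF5: gccAaaATGT
EIF2S3: ggcAacATGG
EIF2B3: gtaAaaATGG

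A purine at position -3 and a G at position 4 are the favoured start context of mammalian mRNAs. EIF1 and EIF1B had neither, EIF1AX and EIF5 had the purine alone, and EIF2S3 and EIF2B3 had both. Among the 54 EIF genes with an annotated ATG, 46 had the purine, 26 had the G, 22 had both and 4 had neither (EIF1, EIF1B, EIF3B and EIF4E1B). EIF4G2, known to start at a GUG codon, had no ATG context.

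EIF1 (plus strand of chromosome 17, 41688885 to 41692668 in GRCh38) was at 708, 728 and 688 CPM in empty vector replicates 1 to 3 and at 1015, 1372 and 1196 CPM in DNAJC12 replicates 1 to 3. Every library with DNAJC12 was above every library with the empty vector. The means were 708 ± 20.1 and 1195 ± 179 CPM (SD, n = 3 each), a log2 fold change of 0.75 ± 0.19 SE with a 95% interval of 0.32 to 1.19, and the edgeR adjusted p was 0.102. Its GC content of 46.4% lies near the middle of the set. Leaving out any 1 library gave fold changes of 0.64 to 0.85. The 250 bases before the start of EIF1 in RefSeq (GRCh38.p14, chr17:41688635-41688884, plus strand) are shown for this gene because its groups were apart in all 6 libraries. None of the 3 motifs described further on occurs in them.
EIF1 promoter: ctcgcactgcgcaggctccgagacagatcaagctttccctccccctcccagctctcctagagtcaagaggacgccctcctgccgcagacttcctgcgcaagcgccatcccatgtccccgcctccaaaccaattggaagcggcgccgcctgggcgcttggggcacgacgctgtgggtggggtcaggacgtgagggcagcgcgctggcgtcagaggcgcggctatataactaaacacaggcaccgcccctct

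The paralogue EIF1B was at 34.9, 29.3 and 31.6 CPM with the empty vector and 35.6, 38.2 and 38.1 CPM with DNAJC12. The groups were apart by a margin smaller than the range of the empty vector libraries, and the adjusted p was 0.671 in the edgeR test. EIF1AX, the partner of eIF1 on the scanning subunit, was at 39.6, 23.4 and 31.3 CPM against 68.1, 28.5 and 56.9 CPM (log2 0.70 ± 0.34 SE). Replicates 1 and 3 with DNAJC12 were above all empty vector libraries and replicate 2 was within their range, and the gene has a low GC content. EIF5 was at 118, 73.1 and 84.3 CPM against 160, 51.1 and 109 CPM (log2 0.22 ± 0.37 SE), with DNAJC12 replicates 1 and 2 at the ends of the range, and EIF1AD had a log2 fold change of -0.12. Of the 5 genes of the group, 4 had a fold change above 0 and the median was 0.22. Per length, the group summed to 236 to 247 FPKM, the deposited level per length and depth, with the empty vector and 338 to 425 FPKM with DNAJC12, most of it from EIF1.

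**Figure D3:**
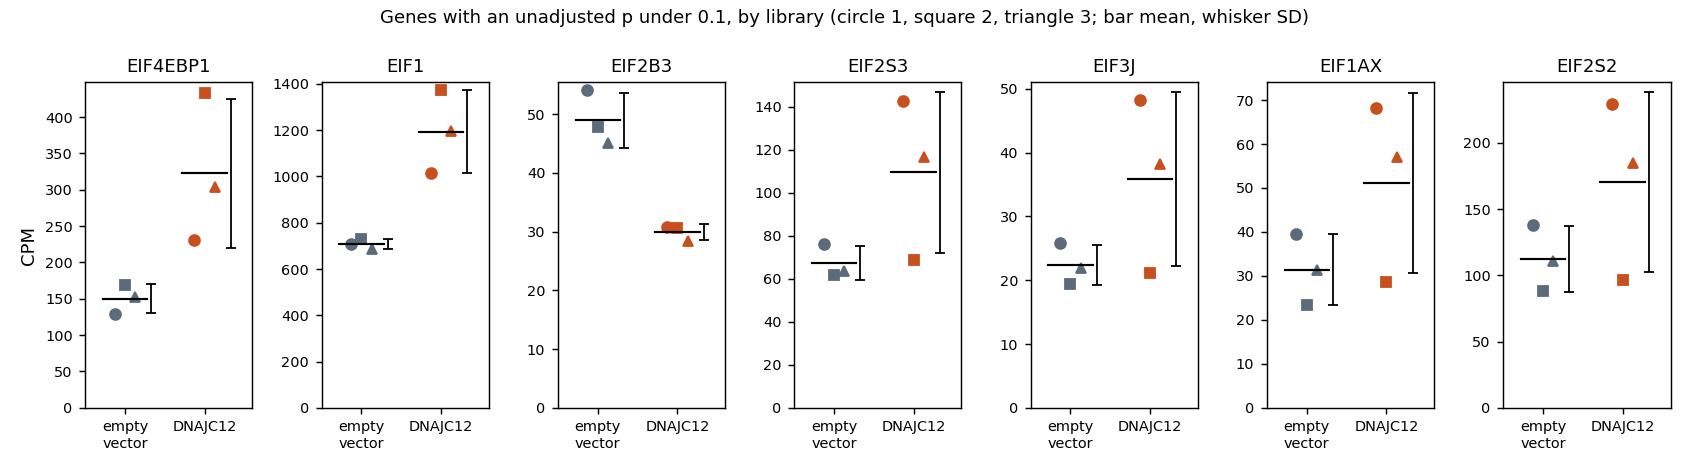
CPM (vertical axis, from 0) in each library for the 7 genes with an unadjusted p under 0.1, with the group mean as a bar and the SD as a whisker. The groups do not overlap for EIF4EBP1, EIF1 and EIF2B3, and in EIF2S3, EIF3J, EIF1AX and EIF2S2 the DNAJC12 library numbered 2 (square) lies inside the empty vector range.

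The eIF2 trimer consists of an alpha subunit (EIF2S1), which carries the regulatory phosphorylation site, a beta subunit (EIF2S2) and a gamma subunit (EIF2S3), which binds GTP and the initiator tRNA. EIF2S3 (plus strand of chromosome X, 24054716 to 24077971 in GRCh38) was at 76.4, 61.9 and 63.8 CPM with the empty vector and 143, 68.9 and 117 CPM with DNAJC12. The groups overlapped through DNAJC12 replicate 2. The means were 67.4 ± 7.88 and 109 ± 37.5 CPM (SD, n = 3 each), the log2 fold change was 0.70 ± 0.27 SE (95% interval 0.086 to 1.32), and the edgeR adjusted p was 0.293. EIF2S2 was at 138, 88.2 and 111 CPM against 229, 96.2 and 185 CPM (log2 0.60 ± 0.32 SE), and here too replicates 1 and 3 with DNAJC12 were above all empty vector libraries and replicate 2 was within their range. EIF2S1 overlapped in all its DNAJC12 libraries but replicate 2, which was below the rest, at 128, 84.4 and 93.3 CPM against 112, 54.6 and 92.3 CPM (log2 -0.24 ± 0.29 SE).

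The ratio of EIF2S3 to EIF2S1 in FPKM was steadier than either gene. It was 0.972, 1.19 and 1.11 in the empty vector libraries and 2.08, 2.06 and 2.06 in the DNAJC12 libraries. All DNAJC12 libraries, replicate 2 included, were thus above all empty vector libraries. The exact two-sided permutation test gave p = 0.1, the smallest value that 3 against 3 libraries allow, and 0.2 after adjustment over the 4 ratios computed, all of which were chosen after the values had been seen. A ratio within a library shows unequal change and not which gene moved.

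The other carriers of initiator tRNA also overlapped between groups. EIF2D, which can deliver tRNA without GTP, was at 99.7, 99.1 and 103 CPM against 99.8, 154 and 122 CPM (log2 0.32), and EIF2A had a log2 fold change of 0.17. EIF2S3B, a retrocopy of EIF2S3 whose reads may be split with its parent, was at 0.885 to 2.61 CPM in all 6 libraries (log2 0.47 ± 0.51 SE). Of the 6 genes, 5 lay above 0, with a median of 0.39.

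The exchange factor eIF2B reloads eIF2 with GTP and is built of 5 subunits, of which EIF2B5 and EIF2B3 form the catalytic part and EIF2B1, EIF2B2 and EIF2B4 the regulatory part. EIF2B3 (minus strand of chromosome 1, 44850522 to 44986722 in GRCh38) was at 54.1, 47.8 and 45.03 CPM with the empty vector and 30.8, 30.7 and 28.4 CPM with DNAJC12. All DNAJC12 libraries were below all empty vector libraries, and replicate 2 did not differ from the other DNAJC12 libraries as it did elsewhere. The means were 49.0 ± 4.67 and 29.9 ± 1.33 CPM (SD, n = 3 each), the log2 fold change was -0.71 ± 0.20 SE (95% interval -1.16 to -0.26), and the edgeR adjusted p was 0.138. Without any 1 library it was -0.77 to -0.64. The remaining subunits had fold changes of 0.11 (EIF2B1), 0.043 (EIF2B4), -0.12 (EIF2B5) and -0.28 (EIF2B2), and of the 5 genes 2 were above 0. EIF2B1 was at 66.4 to 66.6 CPM with the empty vector and 66.1 to 76.6 CPM with DNAJC12, and EIF2B5, its partner in abundance per length, at 118 to 134 and 98.1 to 143 CPM. EIF2B2 was at 63.0 to 72.8 CPM and 42.8 to 73.2 CPM, so that all subunits but EIF2B3 overlapped between groups.

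The promoter side of EIF2B3 is printed because it is the gene with the lowest fold change and holds an E-box. The stretch is what remains of the 250 bases before the RefSeq start once bases inside the GENCODE 29 gene are removed (GRCh38.p14, chr1:44986723-44986845, minus strand), with the motif CACGTG in capitals 179 bases before the start.
EIF2B3 promoter: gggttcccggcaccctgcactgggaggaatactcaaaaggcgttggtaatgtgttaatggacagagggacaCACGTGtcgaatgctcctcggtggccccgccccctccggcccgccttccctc
Over the set, 3 motifs were searched on both strands in the 250 bases before the start, in the 46 EIF genes with a RefSeq promoter. The E-box CACGTG, which reads the same on both strands, was found in 12 of them (26.1%), against 6.49% of all 27305 promoters, coding and noncoding. The ETS site CCGGAAG was found in 9 (19.6%, against 8.82%), and no 2 of these sites overlapped. TGATGNAA, the core of the element bound by C/EBP and ATF factors, was found in 0 of the 46, against 3.19%. A match is a description of the letters and not of binding, and this window does not reach beyond the promoter. The promoters of all genes were not matched to those of the EIF genes in gene type, expression or base composition. The differences in share were not tested.

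The 4 kinases that phosphorylate eIF2 respond to haem loss (EIF2AK1), double-stranded RNA (EIF2AK2), unfolded proteins in the endoplasmic reticulum (EIF2AK3) and uncharged tRNA (EIF2AK4). EIF2AK1, the most abundant per length, was at 127, 101 and 101 CPM with the empty vector and 87.5, 89.7 and 89.5 CPM with DNAJC12 (log2 -0.30 ± 0.19 SE, edgeR adjusted p = 0.533). The groups were apart for this kinase alone among the 4. EIF2AK2 was at 22.8, 16.6 and 23.1 CPM against 38.6, 9.10 and 26.2 CPM (log2 0.25 ± 0.44 SE), with DNAJC12 replicates 1 and 2 at the ends of the range. EIF2AK3 was at 8.96 to 10.2 CPM against 4.74 to 12.2 CPM, and EIF2AK4 at 58.2 to 72.9 CPM against 48.6 to 90.9 CPM. The log2 fold changes of these genes were -0.20 and 0.085.

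Activity of the kinases is set by phosphorylation and was not measured here. Beside these genes, ATF4 was at 375, 403 and 403 CPM with the empty vector and 594, 691 and 685 CPM with DNAJC12 (adjusted p = 0.0923 in the edgeR test), and DDIT3 had a log2 fold change of 0.81 (adjusted p = 0.149). The ATF4 targets TRIB3 and ASNS rose by 3.10 and 2.52 on the log2 scale, with adjusted p of 0.00117 and 0.00822 in the same test.

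The largest initiation factor, eIF3, is a scaffold that binds the small subunit, eIF4G and eIF1, and 14 genes of the set encode its subunits or a copy of one. Of the 14, 9 had a fold change above 0, the median was 0.10, and the groups overlapped for every subunit. EIF3J, a loosely bound subunit at the decoding centre, was at 25.8, 19.5 and 21.9 CPM against 48.2, 21.2 and 38.2 CPM (log2 0.68 ± 0.31 SE, edgeR adjusted p = 0.363). EIF3A, the largest core subunit, was at 57.5, 49.1 and 66.3 CPM against 127, 32.2 and 90.9 CPM (log2 0.53 ± 0.41 SE). In both genes DNAJC12 replicates 1 and 3 were above the empty vector libraries and replicate 2 was not.

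EIF3C had another order of libraries, at 15.0, 12.4 and 12.3 CPM against 10.7, 35.2 and 18.7 CPM (log2 0.70 ± 0.39 SE), with replicate 2 the highest. EIF3C and EIF3CL are near-identical copies, and their low levels of 2.47 and 0.779 FPKM are uncertain. The most abundant subunits per length were EIF3I, at 249 to 278 FPKM with the empty vector and 176 to 295 FPKM with DNAJC12, and EIF3K, at 84.3 to 93.0 and 58.9 to 108 FPKM. In both, replicate 1 with DNAJC12 was the lowest library and replicate 2 the highest. EIF3L was at 187, 141 and 141 CPM against 189, 202 and 180 CPM (log2 0.28), and 51.8% of its exonic bases lie in exons of other genes. The other subunits had fold changes from -0.15 (EIF3G) to 0.32 (EIF3F). Summed over the 14 genes, eIF3 was at 712, 710 and 658 FPKM in the empty vector libraries and 581, 790 and 637 FPKM in the DNAJC12 libraries. The sums overlapped, with the DNAJC12 libraries at both ends. EIF3E, EIF3F and EIF3H, whose mRNAs are known to carry a terminal oligopyrimidine tract, had fold changes of -0.0050, 0.32 and 0.11.

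**Figure D4:**
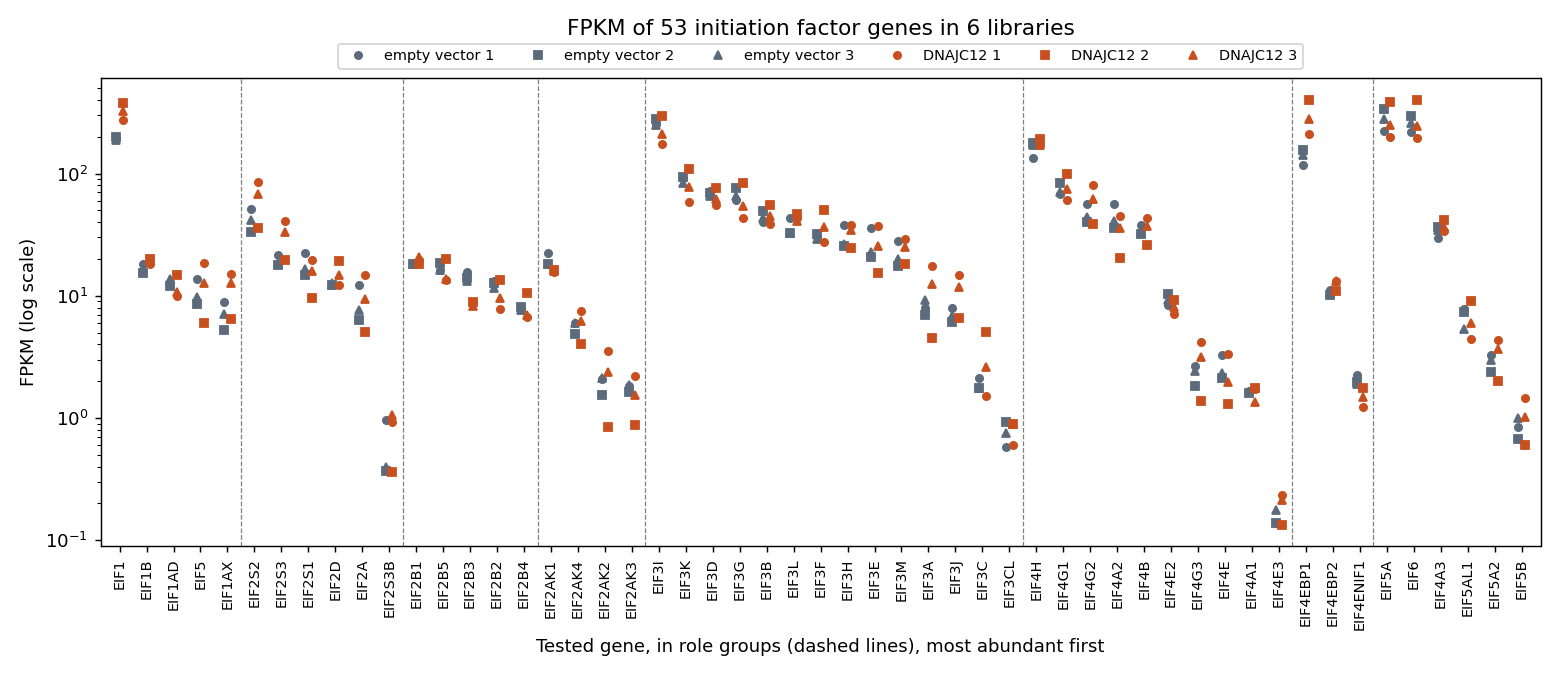
FPKM (vertical axis, log scale) of the 53 tested genes in each library, in role groups separated by dashed lines and ordered by mean level within a group. The most abundant genes are EIF5A, EIF6, EIF1, EIF3I and EIF4EBP1, and the DNAJC12 libraries 1 and 2 mark the ends of the range for many genes.

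The cap-binding complex eIF4F holds the cap-binding protein eIF4E, the helicase eIF4A and the scaffold eIF4G, helped by eIF4B and eIF4H. Of the 11 genes of this group, 10 were tested, 6 of them had a fold change above 0, the median was 0.067, and no gene's groups were apart. EIF4E1B, an oocyte form of the cap-binding protein, had 0 counts in all 6 libraries. EIF4E was at 46.5, 29.7 and 32.8 CPM against 47.8, 18.4 and 28.3 CPM (log2 -0.20 ± 0.35 SE). The smallest unadjusted p of the group was that of EIF4G2, a scaffold that lacks the eIF4E site, at 491, 345 and 387 CPM against 710, 336 and 544 CPM (log2 0.38 ± 0.28 SE). EIF4A2 was at 348, 219 and 250 CPM against 279, 126 and 226 CPM (log2 -0.37 ± 0.31 SE), and EIF4E3, a low-affinity cap-binding relative, at 1.45 to 2.56 CPM (log2 0.37). For EIF4G2 and EIF4A2 the DNAJC12 library of lowest value was replicate 2, and all 3 genes overlapped between groups.

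The most abundant of the group per length were EIF4H, at 134 to 178 FPKM and 171 to 193 FPKM, and EIF4G1, at 68.1 to 83.7 and 60.8 to 98.4 FPKM, empty vector first. EIF4A1, the main helicase of the complex in most cells, was listed at only 1.36 to 1.77 FPKM, while EIF4A2 was at 20.5 to 56.1 FPKM. In the annotation 48.6% of the exonic bases of EIF4A1 are shared with other genes, so its level is uncertain, and the part of this overlap in it was not tested. Its log2 fold change was -0.0061.

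The repressors of eIF4E compete with eIF4G for it. EIF4EBP1 (plus strand of chromosome 8, 38030341 to 38060365 in GRCh38) was at 129, 169 and 152 CPM with the empty vector and 231, 432 and 304 CPM with DNAJC12. Every library with DNAJC12 was above every library with the empty vector. The means were 150 ± 20.2 and 322 ± 102 CPM (SD, n = 3 each), the log2 fold change was 1.10 ± 0.26 SE with a 95% interval of 0.52 to 1.69, and the edgeR adjusted p was 0.0783. It is the gene of highest GC content in the set (65.5%), and replicate 2, in which genes of high GC content read high, was its highest library. Without that replicate the log2 fold change was 0.83, the lowest of the 6 values with 1 library left out, and the highest was 1.29.

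The other repressors differed less. EIF4EBP2 was at 81.7, 74.4 and 74.8 CPM against 96.7, 80.0 and 97.4 CPM (log2 0.25 ± 0.19 SE), and EIF4ENIF1, which carries eIF4E into the nucleus, at 13.9, 12.02 and 11.5 CPM against 7.57, 10.8 and 9.14 CPM (log2 -0.45 ± 0.26 SE). The groups were apart for EIF4ENIF1 on the lower side, with an edgeR adjusted p of 0.485, and overlapped for EIF4EBP2. EIF4EBP3 had 2 counts in all and was not tested, and 73.4% of its exonic bases lie in a readthrough gene.

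Per length, EIF4EBP1 exceeded EIF4E in every library. The length was 1073 bases for EIF4EBP1 and 14067 for EIF4E, and the size of an FPKM ratio depends on these. In empty vector replicate 1 the counts were 2397 and 866. GC content was 65.5% and 39.0%, and its part in the spread of the ratio between libraries was not tested. The ratio in FPKM was 36.3, 74.5 and 60.9 with the empty vector and 63.2, 308 and 141 with DNAJC12, and the groups overlapped (exact two-sided permutation p = 0.2, 0.267 after adjustment over 4 ratios). Against EIF4EBP2 the ratio was 10.6, 15.3 and 13.8 with the empty vector and 16.1, 36.6 and 21.1 with DNAJC12. Here the groups were apart, and p was 0.1, the smallest that the exact test allows, or 0.2 adjusted. The ratio of EIF1 to EIF5 overlapped, at 14.1 to 23.4 against 14.9 to 63.1 (exact permutation p = 0.4, 0.4 adjusted). The amounts of protein and the phosphorylation of the 4E-binding proteins, which sets their grip on eIF4E, were not measured.

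The late and other factors include EIF5B, which joins the subunits, EIF5A, the hypusine-bearing factor also used in elongation, EIF6, which keeps the subunits apart, and EIF4A3, the helicase of the exon junction complex. Of the 6 genes, 5 had a fold change above 0 and the median was 0.14. EIF5A, the most abundant of the 53 genes at a mean of 279 FPKM, was at 633, 943 and 796 CPM with the empty vector and 572, 1096 and 715 CPM with DNAJC12 (log2 0.0065 ± 0.27 SE). EIF6 was at 360, 484 and 427 CPM against 322, 656 and 406 CPM (log2 0.12). In both genes the libraries numbered 2 were the highest of their group and those numbered 1 the lowest. EIF4A3 (log2 0.16), EIF5A2 (0.23) and EIF5B (0.31) also overlapped between groups. EIF5AL1, a copy of EIF5A, had a log2 fold change of -0.072, and reads of the pair may be mixed.

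Other genes of the pathway were counted in 5 lists of 46 genes, of which 45 were tested. None passed the edgeR test, and DESeq2 and limma also called 0. At an unadjusted p of 0.05 in edgeR 6 were higher and 1 was lower, 15.6% of the 45 against 14.1% of all tested genes, and the median log2 fold change was 0.095, near that of the EIF genes. In the control of eIF2 phosphorylation, PPP1R15A, the stress-induced subunit of the phosphatase that reverses it, was at 592, 662 and 625 CPM with the empty vector and 790, 1119 and 1007 CPM with DNAJC12 (log2 0.63 ± 0.20 SE, adjusted p = 0.182). Its groups were apart. PPP1R15B, the constitutive subunit, was at 62.0, 52.0 and 59.1 CPM against 127, 56.1 and 97.9 CPM (log2 0.70, adjusted p = 0.321), with DNAJC12 replicate 2 inside the empty vector range. Of the 9 genes, 8 had a fold change above 0.

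Among 14 regulators of the cap and the poly(A) tail, 11 had a fold change above 0 and 4 had groups apart on the higher side, 28.6% against 9.26% of all tested genes. Over the 45 tested genes of the 5 lists that share was 13.3%, and these differences were not tested. The smallest p-values of the 14 were those of PABPC4, a poly(A)-binding protein (log2 0.55, edgeR adjusted p = 0.211), and MKNK2, a kinase of eIF4E (log2 0.61, adjusted p = 0.236). Of 9 helpers of ternary complex and start site choice, 5 were above 0 and the smallest p-values were those of the helicase DDX3X (log2 0.78, edgeR adjusted p = 0.428), whose DNAJC12 replicate 2 was below every empty vector library, and the recycling factor ABCE1 (log2 0.42, adjusted p = 0.635). Of 12 elongation and termination factors, 11 were tested and 6 were above 0. The smallest p-values of that list were those of EEF1A2, a tissue-restricted elongation factor, at 57.1, 70.3 and 66.1 CPM against 26.2, 48.5 and 30.0 CPM (log2 -0.89, edgeR adjusted p = 0.163), and of EEF1A1 (log2 0.35, adjusted p = 0.438). EEF1G was listed at 0 in all 6 libraries. Of the enzymes that make hypusine on EIF5A, DHPS had a log2 fold change of -0.85 at 0.209 to 1.33 CPM and DOHH one of 0.057.

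The number of EIF genes called depended on the test and on the libraries numbered 2, and so did the number over all genes. With the DESeq2 Wald test 2 genes were called, EIF4EBP1 (adjusted p = 0.00613) and EIF1 (adjusted p = 0.0423), which is 3.77% of the 53 genes against 3.89% of all tested genes. With a correction for GC content 8 were called, EIF4EBP1, EIF1, EIF1AX, EIF2S3 and EIF3J higher and EIF2B3, EIF2S1 and EIF4A2 lower, 15.1% against 17.3%. Without DNAJC12 replicate 2 there were 12, with EIF2S2, EIF3A, EIF4G2 and EIF4G3 also higher and EIF2B3, EIF2B2 and EIF3I lower, 22.6% against 22.5%. Without both libraries numbered 2 there were 9, 8 higher and 1 lower, 17.0% against 18.7%. EIF2S1 and EIF4A2 were called with the GC correction alone, and EIF2B2, EIF3I and EIF4G3 without DNAJC12 replicate 2 alone. The log2 fold change of EIF2S1 was -0.42 with the GC correction, 0.0032 without DNAJC12 replicate 2 and -0.12 without both libraries numbered 2. That of EIF4A2 was -0.58 with the GC correction and from -0.64 to -0.11 with 1 library left out. In each of these settings the share called among EIF genes was near that of all genes. For the 45 related genes it was 20.0% with the GC correction (7 higher, 2 lower), 40.0% without DNAJC12 replicate 2 (15 higher, 3 lower) and 35.6% without both libraries numbered 2 (13 higher, 3 lower). The shares in the last pair of settings were above the 22.5% and 18.7% of all genes, a difference that was not tested.

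EIF4EBP1 and EIF1 were called by the DESeq2 test, after the GC correction, without DNAJC12 replicate 1, without DNAJC12 replicate 2, without both libraries numbered 2 and with no filter on low counts. After the GC correction their edgeR adjusted p was 7.55e-05 and 0.0204. These calls reuse the same libraries and are not independent of each other. For EIF1 the unadjusted edgeR p fell in some fits without a larger fold change or a clearly smaller SE. It was 0.00307 at 0.75 ± 0.19 SE with the filter and all libraries. With no filter it was 0.00125 at 0.73 ± 0.23 SE. Without both libraries numbered 2 it was 0.00064 at 0.65 ± 0.19 SE. Calls in such fits therefore need not reflect a clearer difference. EIF2B3, EIF2S3, EIF3J and EIF1AX were called after the GC correction, without DNAJC12 replicate 2 and without both libraries numbered 2, and not by the DESeq2 test on all libraries. The direction of EIF4EBP1, EIF1, EIF2B3, EIF2S3, EIF3J, EIF1AX and EIF2S2 was the same in every setting plotted.

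**Figure D5:**
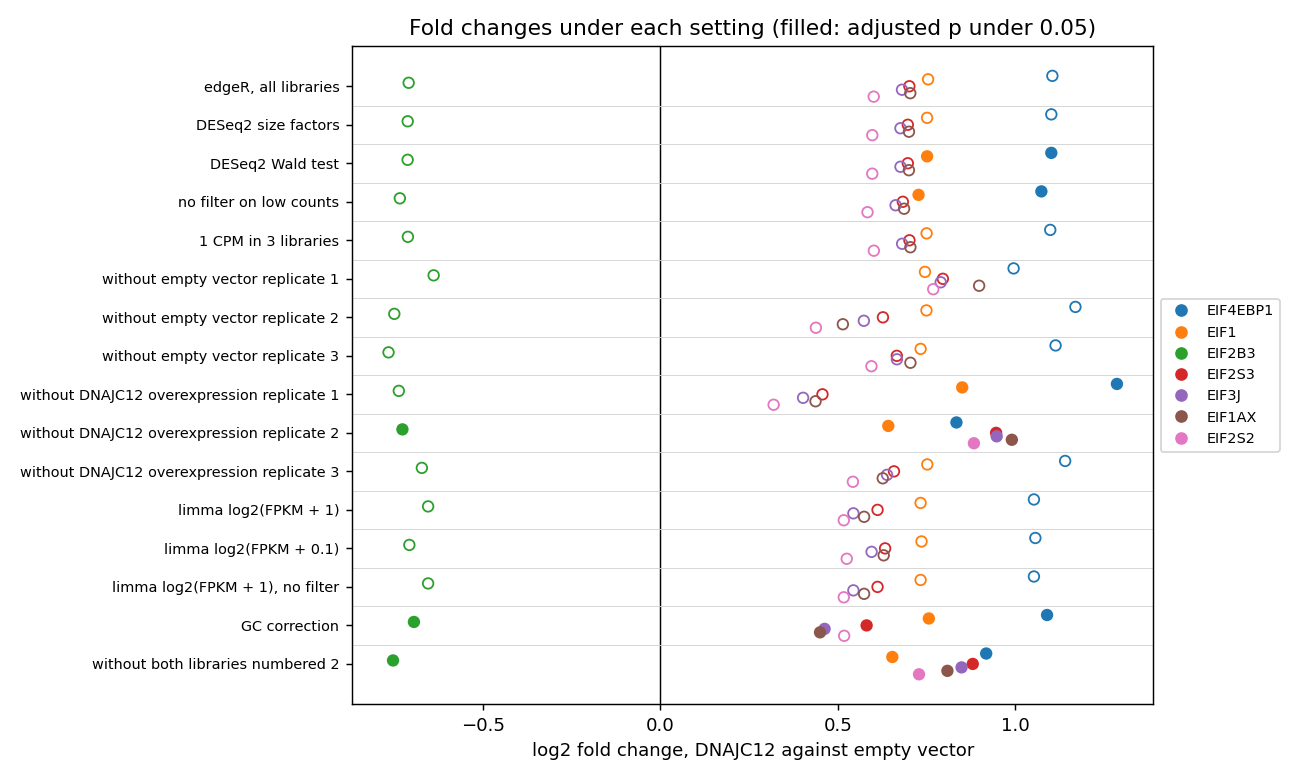
Log2 fold change (horizontal axis) of 7 genes under each analysis setting but the replicate block (vertical axis). Points are filled where the adjusted p was under 0.05 over all genes of that fit. EIF4EBP1 and EIF1 are filled in the most settings, EIF2B3 stays between -0.77 and -0.64, and EIF2S2, EIF2S3, EIF3J and EIF1AX lie furthest right without the DNAJC12 library numbered 2.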

How the data were processed

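RNA sequencing was analysed in 6 libraries, 3 per group, as the labels group and number them. The authors deposited raw read counts per gene and, in a second table, FPKM of the same genes. The aligner was HISAT2 2.0.5 and the genome hg19, per the submitters' processing notes, but all 58735 gene identifiers and coordinates equal those of GENCODE 29 on GRCh38, so coordinates are given in GRCh38. The sources used here name neither the counting program nor a strand setting, so counts of overlapping, antisense and near-identical genes are uncertain, and processed pseudogenes may take reads of EIF genes.

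Counts were tested in R 4.3.3 by the quasi-likelihood test of edgeR 4.0.16 (TMM, filterByExpr with minimum count 10 and minimum total 15, robust dispersions), with Benjamini-Hochberg adjustment over all 14520 genes tested and a threshold of 0.05. Genes were compared per length with the deposited FPKM. Intervals of 95% use the t distribution of the fit. The common biological coefficient of variation was 26.6%. Alternatives were DESeq2 1.42.0 (size factors, Wald test), no filter, 1 CPM in 3 libraries, leaving out each library, a replicate block, and limma 3.58.1 on log2(FPKM + 1) or log2(FPKM + 0.1), with an FPKM filter of 0.5 in 3 libraries or none. A pseudocount understates changes of genes with low values. Added after seeing the data were a GC correction (loess, span 0.3) and a fit without both libraries numbered 2. On simulated data for this comparison, over 14304 genes, edgeR called 19.2% of the genes given a 2-fold change and 88.4% of those given a 4-fold change. Of its calls 5.5% were false. The DESeq2 Wald test called 30.3% and 93.7%, and 14.4% of its calls were false. The simulation was not repeated, and only a small part of the 14304 genes was given a change, so these shares are imprecise. The simulated counts held no GC-dependent shift between libraries, so these rates need not hold for the 6 libraries.

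The EIF genes, their role groups, the related lists and the motifs were chosen with earlier results of these data known. In each role group the 3 genes of smallest unadjusted p and the 2 of highest mean FPKM were named with values, and in each related list the 2 of smallest p; other genes, and the 4 ratios, were added after their values were seen. Promoter bases are from RefSeq (GRCh38.p14), matched for 46 of 55 genes by symbol.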

Additional observations from a re-analysis of the deposited data

How the results depend on the processing

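Among all genes 181 were called by the edgeR test. The count was 565 with the DESeq2 Wald test, 688 with no filter on low counts, 1937 with the replicate block, 12 with limma on FPKM without a filter, 2506 with the GC correction and 2754 without both libraries numbered 2. It ran from 25 to 3366 when 1 library was left out. Among the EIF genes, where the edgeR count was 0, it was 2 of 53 with DESeq2 (3.77%, against 3.89% of all genes). With no filter it was 2 of 54, where 688 of all 27310 genes were called. With the replicate block it was 7 of 53 (13.2%), where 1937 of all 14520 genes were called. It was 8 with the GC correction (15.1%, against 17.3%) and 9 without both libraries numbered 2 (17.0%, against 18.7%). Leaving out 1 library gave 0 to 12, the highest without DNAJC12 replicate 2 (22.6%, against 22.5%). For the related genes, also at 0, the counts were 2 of 45 with no filter and 7 of 45 with the replicate block. They were 9 with the GC correction (20.0%, against 17.3% of all genes) and 16 without both libraries numbered 2 (35.6%, against 18.7%). With 1 library left out they were 0 to 18 (at most 40.0%, without DNAJC12 replicate 2, against 22.5%). The cause was not tested. The replicate numbers were not taken to pair the libraries, because the labels do not say that they do. Deviations from the group means correlated at 0.45, 0.58 and 0.034 for numbers 1, 2 and 3. Between unlike numbers the correlations ran from -0.58 (empty vector replicate 2 with DNAJC12 replicate 1) to 0.22. Empty vector replicate 3 correlated best with DNAJC12 replicate 1 (0.14). The block called 7 EIF genes: EIF4EBP1, EIF1, EIF2S3, EIF1AX, EIF3J and EIF2S2 higher and EIF2B3 lower. For EIF1 the log2 fold change was 0.74 ± 0.19 SE with the block and 0.75 ± 0.19 SE without it. The unadjusted edgeR p was 8.94e-05 against 0.00307, so the lower p does not reflect a clearer difference.

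Over 16 alternatives, 752 of 846 fold changes of EIF genes kept their direction and side of the threshold, 42 passed it, and 52 turned direction, 36 of these with 1 library left out. A turn occurred in 24 genes, and 29 kept 1 direction. With the GC correction the fold change turned for EIF2A (-0.043), EIF2AK2 (-0.061), EIF3M (-0.0010), EIF4A1 (0.019) and EIF5A2 (-0.034). Without both libraries numbered 2 it turned for EIF2AK3 (0.018), EIF2B4 (-0.18), EIF3E (0.11), EIF4G1 (-0.037), EIF5A (-0.16) and EIF6 (-0.12). EIF5A also turned with no filter (-0.024), with the replicate block (-0.028) and with limma (-0.036 in each of 3 fits). With 1 library left out, the fold change ran from -0.26 to 0.49 for EIF2A, -0.24 to 0.64 for EIF2AK2, -0.56 to 0.085 for EIF2AK3, -0.13 to 0.30 for EIF2AK4, -0.18 to 0.15 for EIF2B4, -0.48 to 0.0032 for EIF2S1, -0.055 to 0.18 for EIF3B, -0.076 to 0.24 for EIF3CL, -0.36 to 0.28 for EIF3E, -0.46 to 0.026 for EIF3G, -0.021 to 0.31 for EIF3H, -0.38 to 0.044 for EIF3K and -0.021 to 0.37 for EIF3M. It ran from -0.068 to 0.10 for EIF4A1, -0.12 to 0.24 for EIF4B, -0.64 to 0.068 for EIF4E, -0.12 to 0.21 for EIF4G1, -0.013 to 0.69 for EIF4G3, -0.20 to 0.56 for EIF5, -0.30 to 0.19 for EIF5A, -0.015 to 0.49 for EIF5A2, -0.38 to 0.13 for EIF5AL1, -0.042 to 0.58 for EIF5B and -0.22 to 0.32 for EIF6. EIF2S3B, at 0.885 to 2.61 CPM, had the widest 95% interval, which reached 1.14 to each side on the log2 scale.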
